A study of Homo sapiens with 8 samples.

Results

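The genes described here are the 201 LINC-named RNAs, those whose symbol is LINC followed by digits, that reached a mean of at least 20 raw counts over the 4 libraries of a P-body sort of HEK293T cells. They were chosen by name and read count from 2130 LINC-named rows of a table of 59414 genes, and the other 1929 LINC rows fell under the minimum. HEK293T is an established human embryonic kidney line. Every library came from cells that carried both RNA editors of the study, directed to P-bodies: an A-to-I editor with an ADAR deaminase domain (TRIBE) and a C-to-U editor with an APOBEC deaminase (STAMP), and no library without editors was used here. The groups were 2 libraries of sorted P-bodies, made from 50 ng of RNA, and 2 libraries of cytosol, made from 100 ng, and the editing tables add 2 libraries after an EDC4 knockdown (siEDC4) and 2 after a control siRNA (siNC), made from 500 ng of RNA each. Samples numbered 1 belong to batch 1 and samples numbered 2 to batch 2 by their labels. Fraction and input amount went together and cannot be told apart. The labels do not tell whether the libraries of a group are from different cultures. The p-values therefore rest on the spread of these libraries alone, which may be technical.

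LINC names are placeholders given to long intergenic noncoding RNAs until a function is described. Such RNAs are usually spliced and polyadenylated like mRNAs but carry no long reading frame, and many stay near the chromatin that made them, while others reach the cytoplasm. P-bodies are cytoplasmic granules that gather repressed mRNAs with decapping and decay proteins, among them DDX6, LSM14A and the decapping scaffold EDC4. A noncoding RNA in the cytoplasm can be held there as an mRNA can, and a few LINC loci turned out to encode micropeptides or to be the source of microRNAs.

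The members were weakly expressed and uneven. Length-scaled levels (RPKM, counts scaled by exonic length and library size) ran from 0.0777 to 14.9 with a median of 1.08, against a median of 3.74 over all genes tested. Together the members took 0.154% ± 0.007 of reads in sorted P-bodies, against 0.168% ± 0.004 in cytosol (SD, n = 2 each). LINC00632 alone held 12.6% of all member reads and the 16 most counted members held 50.1%, while 79 members had a mean under 50 counts. Count totals per library ran from 21186963 to 23716926. GENCODE v29 lists 154 members as lincRNA, 17 as processed transcripts, 13 as antisense, 12 under pseudogene types and LINC02693 as protein coding. Since naming, 18 members have taken another symbol, such as NIHCOLE for LINC02163, SMIM45 for LINC00634 and LETR1 for LINC01197.

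The ends of the longest transcripts of 2 members with large rises and 2 with large falls in sorted P-bodies are shown as examples of the members' sequence. They come from the 3 largest changes in each direction once members with near-identical copies or large exon overlaps are passed over. Each run is the last 150 bases of the longest GENCODE v29 transcript in hg38, 5′ to 3′ on the RNA strand, with the polyadenylation word AATAAA in capitals. The first 2 are members that rose.
LINC01473, chr2:186032891-186033040, minus strand: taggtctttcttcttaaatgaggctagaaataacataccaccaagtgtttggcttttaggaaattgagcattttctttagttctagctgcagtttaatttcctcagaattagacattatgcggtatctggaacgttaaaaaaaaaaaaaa
LINC01905, chr18:56096165-56096314, plus strand: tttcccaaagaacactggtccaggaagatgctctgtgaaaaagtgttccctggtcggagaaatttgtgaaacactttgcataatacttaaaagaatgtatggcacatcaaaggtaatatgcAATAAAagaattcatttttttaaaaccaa
LINC02604, chr7:66906148-66906297, plus strand: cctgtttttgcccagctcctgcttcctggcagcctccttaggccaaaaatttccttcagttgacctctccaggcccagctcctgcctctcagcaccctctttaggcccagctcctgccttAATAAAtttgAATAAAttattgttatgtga
LINC01278, chrX:63426560-63426709, minus strand: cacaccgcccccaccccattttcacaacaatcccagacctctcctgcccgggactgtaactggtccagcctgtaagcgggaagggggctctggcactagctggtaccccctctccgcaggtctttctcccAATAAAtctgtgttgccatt

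The word AATAAA, searched on the RNA strand alone, stood in the last 150 bases of 26 of 46 members that rose, 25 of 42 that fell and 57 of 112 not called. Over all genes tested with a transcript of that length it stood in 65.4% of those that rose, 59.2% of those that fell and 52.9% of those not called. The pooled shares were 54.0% of members and 58.4% of all genes.

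The sort compared RNA of the P-body fraction with RNA of the cytosol, gene by gene. In sorted P-bodies 46 of the 201 members were higher, 43 were lower and 112 were not called (edgeR quasi-likelihood test, Benjamini-Hochberg adjusted p under 0.05 over 18745 genes). That is 22.9% higher and 21.4% lower, while over all genes tested 28.8% were higher and 29.0% lower. All 201 members passed the filter on low counts. The members' median log2 fold change was 0.04, and that of all genes tested was -0.03. More than a 2-fold difference was seen in 28 of the 46 members that rose and in 13 of the 43 that fell, and in 2753 of 5401 higher and 1835 of 5440 lower genes over all genes tested. Fold changes of called members ran from -2.53 to -0.34 and from 0.34 to 2.64 on the log2 scale. The split moved with the method: DESeq2, another test with its own scaling, called 41 higher (20.4%) and 24 lower (11.9%). It called 25.8% of all genes higher and 22.2% lower. Scaling by library size alone in edgeR called 34 higher (16.9%) and 59 lower (29.4%). Of all genes 22.7% were then higher and 36.9% lower, with their median at -0.23. Without cytosol library 1 fewer members were called in both directions, as were fewer of all genes tested. The median log2 fold change was then 0.05 in the members and -0.02 over all genes.

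**Figure D1:**
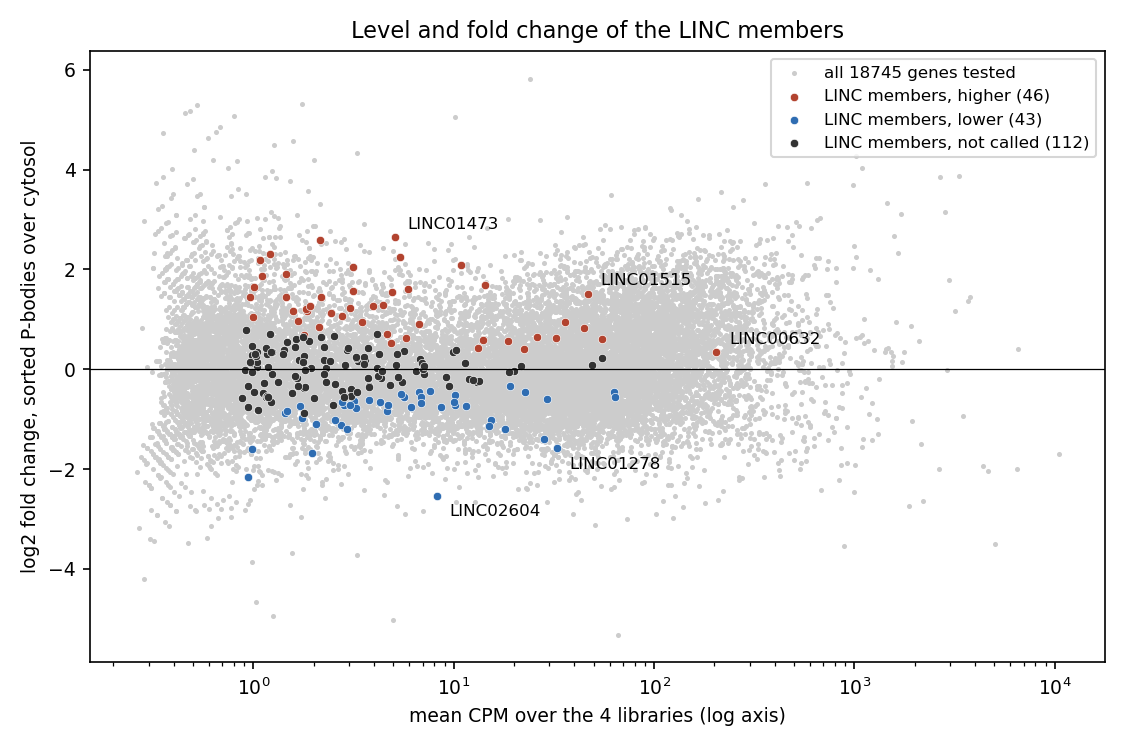
Each dot is a gene, placed by its mean CPM over the 4 libraries (log axis) and its log2 fold change, sorted P-bodies over cytosol; grey dots are all genes tested and coloured dots are the 201 members by call. The members lie mostly at the low end of the levels, and LINC00632 stands alone at the high end.

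Every called member had the same sign in both batches and groups that did not overlap, but so did every called gene of the table. Groups did not overlap in 146 of the 201 members (72.6%), against 80.5% of all genes tested. Among the 46 higher members, sorted library 2 stood above sorted library 1 in 42, as it did in 4290 of the 5401 higher genes of the table. The median log2 ratio of the 2 libraries was 0.43 in the higher members, against 0.17 over all higher genes. In the 43 lower members that median was -0.09, against -0.14 over all lower genes. The sorted libraries differed from each other more than the cytosol libraries did, with a chi-square per degree of freedom of 25.4 in sorted P-bodies, against 3.23 in cytosol, over all genes, and of 4.26 against 1.66 over the members. Their part in the calls was not tested beyond the fits that leave a library out.

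**Figure D2:**
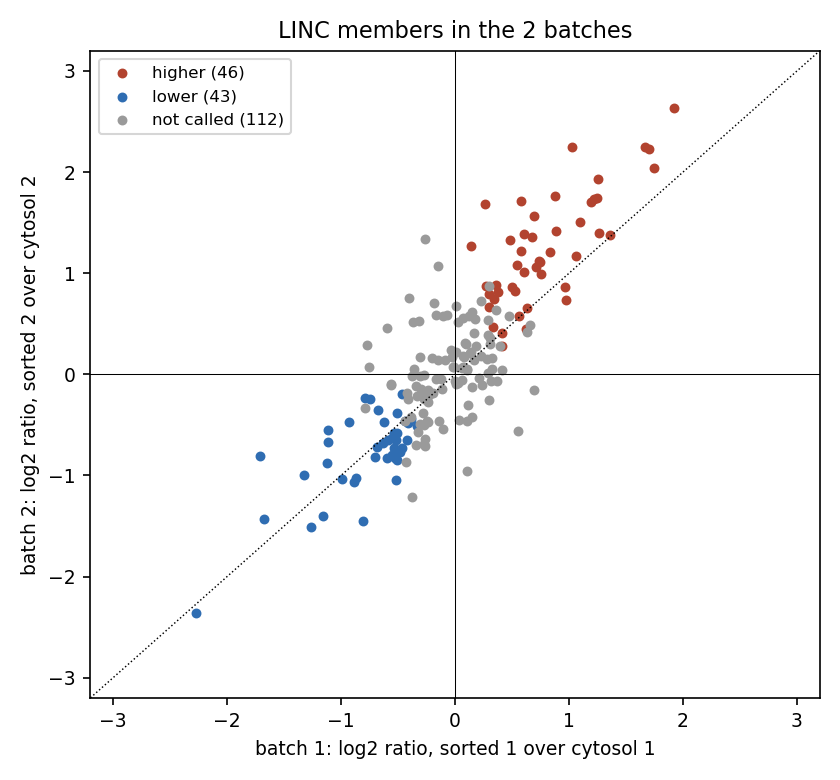
Each dot is a member, with the log2 ratio of sorted library 1 over cytosol library 1 on the x axis and of sorted library 2 over cytosol library 2 on the y axis, after adding 0.5 CPM; the dotted line marks equal ratios. Most higher members sit above the line, so their ratio was larger in batch 2, and the lower members lie on both sides of it.

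LINC01473, which lies on chromosome 2 at 186032884 to 186422432, had 160 and 197 reads in sorted P-bodies, against 38 and 31 reads in cytosol. Both sorted libraries were far above both cytosol libraries. Each fraction came from many cells, so how many cells held an RNA and how much each held cannot be told apart. It averaged 8.78 ± 2.14 CPM (reads scaled by the TMM-adjusted library total) in sorted P-bodies, against 1.40 ± 0.22 CPM in cytosol (SD, n = 2 each). Its log2 fold change of 2.64 ± 0.24 (SE, edgeR adjusted p = 1.8e-05) was the largest rise of any member. With the trend of fold change on GC content removed it fell to 1.56 and stayed called.

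LINC02163 had the largest rise among members with over 90 reads in every library. It is now named NIHCOLE, an RNA described in liver cancer cells as a scaffold for DNA end joining. It had 336 and 381 reads in sorted P-bodies, against 109 and 95 in cytosol, a log2 fold change of 2.09 ± 0.17 (SE, edgeR adjusted p = 1.1e-05). LINC01876, an RNA whose promoter was described as a LINE-1 element active in human neural progenitors, had 386 and 502 reads in sorted P-bodies, against 173 and 163 in cytosol. Its log2 fold change was 1.68 ± 0.19 (SE, edgeR adjusted p = 5.7e-05). Both genes are best known from other tissues and were present in these cells at 4.32 and 5.28 RPKM over the 4 libraries, above the median of the members.

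LINC02882 had 148 and 215 reads in sorted P-bodies, against 42 and 50 in cytosol (log2 fold change 2.26 ± 0.27, edgeR adjusted p = 8.3e-05). LINC01967 had 154 and 208 reads in sorted P-bodies, against 68 and 75 in cytosol (1.62 ± 0.23, edgeR adjusted p = 0.00025). LINC00351 had 74 and 130 reads in sorted P-bodies, against 34 and 26 in cytosol (2.05 ± 0.36, edgeR adjusted p = 0.00089). In all 3 the second sorted library was the higher one, and without it LINC00351 was at 1.45 and still called.

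The other 6 of the 12 largest rises rested on few reads. All had a mean under 20 reads in cytosol and met the minimum through sorted P-bodies, where they are high, so they had to differ to some degree. LINC02444 had 56 and 93 reads in sorted P-bodies, against 10 and 20 in cytosol, with a log2 fold change of 2.59 ± 0.42. LINC01905 had 45 and 38 reads in sorted P-bodies, against 14 and 6 in cytosol. Its log2 fold change of 2.30 ± 0.40 became 3.02 without cytosol library 1. LINC01619, whose start lies 2932 bases from that of the antiproliferative gene BTG1 and which overlaps exons of the same strand over 10.4% of its exonic bases, had 31 and 41 reads in sorted P-bodies, against 6 and 13 in cytosol (2.18 ± 0.44, and 2.81 without cytosol library 2). Groups did not overlap in any of these, but that held for every called gene. LINC01122 was even between libraries, with 48 and 46 reads in sorted P-bodies, against 15 in each cytosol library (1.91 ± 0.31). LINC01099 had 23 and 47 reads in sorted P-bodies, against 13 and 10 in cytosol. Its log2 fold change of 1.88 ± 0.48 became 1.14 without sorted library 2. LINC02301, with 23 and 39 reads in sorted P-bodies, against 9 and 15 in cytosol (1.64 ± 0.45), was the least stable of the 12. Its adjusted p of 0.011 became 0.059 without sorted library 2 or without cytosol library 1, and 0.14 with the GC trend removed. For the first 5 of these the adjusted p in edgeR ran from 0.00052 to 0.0076.

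**Figure D3:**
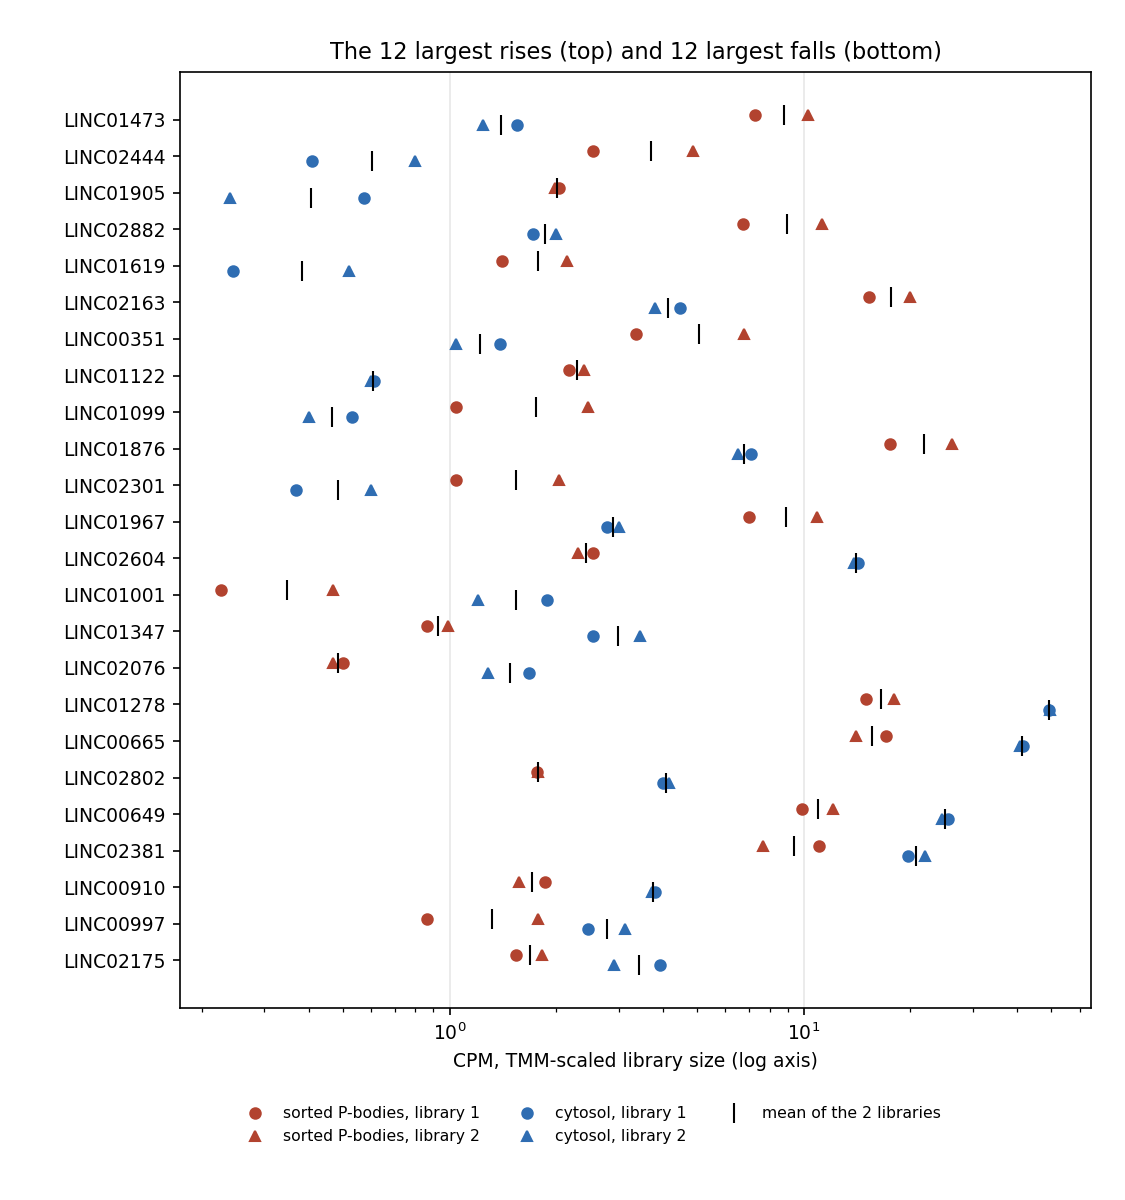
CPM (log axis) of the 12 members with the largest rise and the 12 with the largest fall, with a point for each library (sorted P-bodies above, cytosol below within a row) and a bar for the mean of the 2 libraries of a group. Sorted and cytosol points do not overlap in any row, which held for every called gene. Group means run from LINC01473 at 8.78 against 1.40 CPM to LINC02175 at 1.69 against 3.42 CPM.

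At the other end LINC02604, a gene with a single exon block on chromosome 7 at 66902857 to 66906297, had 56 and 44 reads in sorted P-bodies, against 348 and 347 in cytosol. The libraries of each group lay close together. It averaged 2.42 ± 0.17 CPM in sorted P-bodies, against 14.1 ± 0.3 CPM in the cytosol libraries (SD, n = 2 each). Its log2 fold change was -2.53 ± 0.16 (SE, edgeR adjusted p = 3.6e-06).

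Several falls rested on many reads. LINC01278 had 331 and 344 reads in sorted P-bodies, against 1201 and 1237 in cytosol, with a log2 fold change of -1.58 ± 0.12 (SE, edgeR adjusted p = 6.2e-06). LINC00665, from which the micropeptide CIP2A-BP was described, had 375 and 269 reads in sorted P-bodies, against 1016 and 1022 in cytosol (-1.40 ± 0.12, edgeR adjusted p = 1.2e-05). LINC00649, whose start lies 280 bases from that of ATP5PO, a subunit of the mitochondrial ATP synthase, had 218 and 231 reads in sorted P-bodies, against 623 and 614 in cytosol (-1.19 ± 0.13, edgeR adjusted p = 4.1e-05). All 3 were between 2 and 3 times lower in sorted P-bodies, and in each the cytosol libraries were nearly equal. LINC02381 had 243 and 147 reads in sorted P-bodies, against 481 and 548 in cytosol (-1.14 ± 0.17, edgeR adjusted p = 0.00026), but 24.3% of its exonic bases overlap exons of a gene on the opposite strand, which counts without strand could not tell apart.

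The remaining 7 of the 12 largest falls had under 105 reads in every library. LINC01347 had 19 reads in each sorted library and 62 and 86 in cytosol (log2 fold change -1.69 ± 0.30). LINC01001 had 5 and 9 reads in sorted P-bodies, against 46 and 30 in cytosol (-2.15 ± 0.46, and -2.75 without sorted library 2). LINC02802 had 39 and 34 reads in sorted P-bodies, against 98 and 104 in cytosol (-1.20 ± 0.22). For these 3 over 99% of the longest transcript matches another gene at 97% identity or more, so their counts are uncertain. The other 4 had no such copy. LINC02076 had 11 and 9 reads in sorted P-bodies, against 41 and 32 in cytosol (-1.59 ± 0.37). LINC00910 had 41 and 30 reads in sorted P-bodies, against 93 in each cytosol library (-1.13 ± 0.23). Groups stayed apart here and in the next pair of genes, as they did in every called gene. LINC00997 had 19 and 34 reads in sorted P-bodies, against 60 and 78 in cytosol (-1.10 ± 0.34). Its log2 fold change was -0.66 without sorted library 1 and -1.70 without sorted library 2. LINC02175 had 34 and 35 reads in sorted P-bodies, against 96 and 73 in cytosol (-1.02 ± 0.26). In edgeR the adjusted p of these 7 ran from 0.00087 to 0.019. LINC01347, LINC01001 and LINC02076 had a mean under 20 reads in sorted P-bodies and met the minimum through cytosol, where they are high. They therefore had to differ to some degree. The call was lost for LINC02076 without cytosol library 1 (edgeR adjusted p = 0.065), for LINC00997 without cytosol library 2 (0.080) and with the length trend removed (0.051), and for LINC02175 without cytosol library 1 (0.091) and with the GC trend removed (0.060).

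Of the 6 most abundant members per length, LINC00641 and LINC00632 were higher, LINC00674 was lower and the others were not called. LINC00294 led at 14.9 RPKM over the 4 libraries, with 1127 and 953 reads in sorted P-bodies, against 1161 and 1206 in cytosol, and was not called (log2 fold change 0.08 ± 0.10, edgeR adjusted p = 0.52); 17.4% of its exonic bases overlap exons on the opposite strand. LINC00641 followed at 9.60 RPKM, with 1160 and 1527 reads in sorted P-bodies, against 1067 and 1084 in cytosol. Its rise of 0.60 ± 0.17 (edgeR adjusted p = 0.012) had a p of 0.057 under library-size scaling and 0.71 with the GC trend removed. LINC00674, which GENCODE lists as a pseudogene transcript, was lower at 8.34 RPKM, with 101 and 86 reads in sorted P-bodies, against 188 and 193 in cytosol (-0.76 ± 0.16, edgeR adjusted p = 0.0023).

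LINC00205, a divergent partner of POFUT2 at 7.21 RPKM, had 1303 and 1141 reads in sorted P-bodies, against 1272 and 1223 in cytosol. Its adjusted p of 0.066 in edgeR (log2 fold change 0.23 ± 0.10) dropped under the threshold without sorted library 1 (0.0059), without sorted library 2 (0.011) and with the GC trend removed (0.00069). LINC01976, at 5.78 RPKM with 54 and 25 reads in sorted P-bodies, against 85 and 70 in cytosol, was not called either (-0.72 ± 0.30, edgeR adjusted p = 0.068). With the batch as a replicate block it was (-0.75, adjusted p = 0.012), as it was without sorted library 1 (0.00012), without cytosol library 2 (0.045), with library-size scaling (0.037) and with no filter (0.0084). Among these 6 members the levels of LINC00205 and LINC00632, at 7.21 and 7.09 RPKM, lay within the spread of the libraries.

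LINC00632 is the locus of CDR1as, a circular RNA rich in miR-7 sites, and counts per gene do not separate the circle from the linear transcript. It had 4896 and 4514 reads in sorted P-bodies, against 4088 and 4839 in cytosol, the most of any member, and raw reads of the groups overlapped. Scaled, it averaged 229 ± 9.6 CPM in sorted P-bodies, against 180 ± 18.6 CPM in cytosol (SD, n = 2 each), and the groups no longer overlapped. The log2 fold change was 0.34 ± 0.12 (SE, edgeR adjusted p = 0.029). The call was not stable: it was lost under library-size scaling (0.14, adjusted p = 0.27) and without either cytosol library (adjusted p = 0.49 without library 1 and 0.13 without library 2). With the length trend removed the sign turned (-0.32, adjusted p = 0.041), as it did with the GC trend removed (-0.56, adjusted p = 0.0032).

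Other members with many reads moved in both directions. LINC01515, with 1269 and 1559 reads in sorted P-bodies, against 598 and 604 in cytosol, rose by 1.51 ± 0.15 on the log2 scale (edgeR adjusted p = 3.1e-05). LINC00630 had 1095 and 1239 reads in sorted P-bodies, against 796 in each cytosol library (0.83 ± 0.13, edgeR adjusted p = 0.00046), but was not called with the GC trend removed (0.19, adjusted p = 0.25). LINC02693 had 1134 and 994 reads in sorted P-bodies, against 1834 and 1942 in cytosol (-0.56 ± 0.10, edgeR adjusted p = 0.00084). These were named after their values were seen, as members among the 10 with the most reads. LINC02210 likewise had 1222 and 980 reads in sorted P-bodies, against 1814 and 1796 in cytosol (-0.45 ± 0.10, edgeR adjusted p = 0.0036), and lost its call without cytosol library 1 (adjusted p = 0.061).

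The share of members called was largest at the highest read counts. Of the 16 members with a mean of at least 500 counts, 8 were higher and 6 lower, where 41.7% of all genes at that depth were higher and 35.1% lower. Of the 56 members between 100 and 500 counts, 13 were higher and 19 lower (all genes 22.5% and 39.4%). Of the 50 members between 50 and 100 counts, 8 were higher and 10 lower (all genes 17.7% and 25.4%). The 79 members between 20 and 50 counts held 17 that were higher and 8 that were lower (all genes 16.3% and 14.5%). Protein-coding genes, which had a median of 731 counts where the members had 67.2, were called higher in 32.8% and lower in 33.4%. Other long noncoding types, with a median of 29.0 counts, were called higher in 16.5% and lower in 16.3%.

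**Figure D4:**
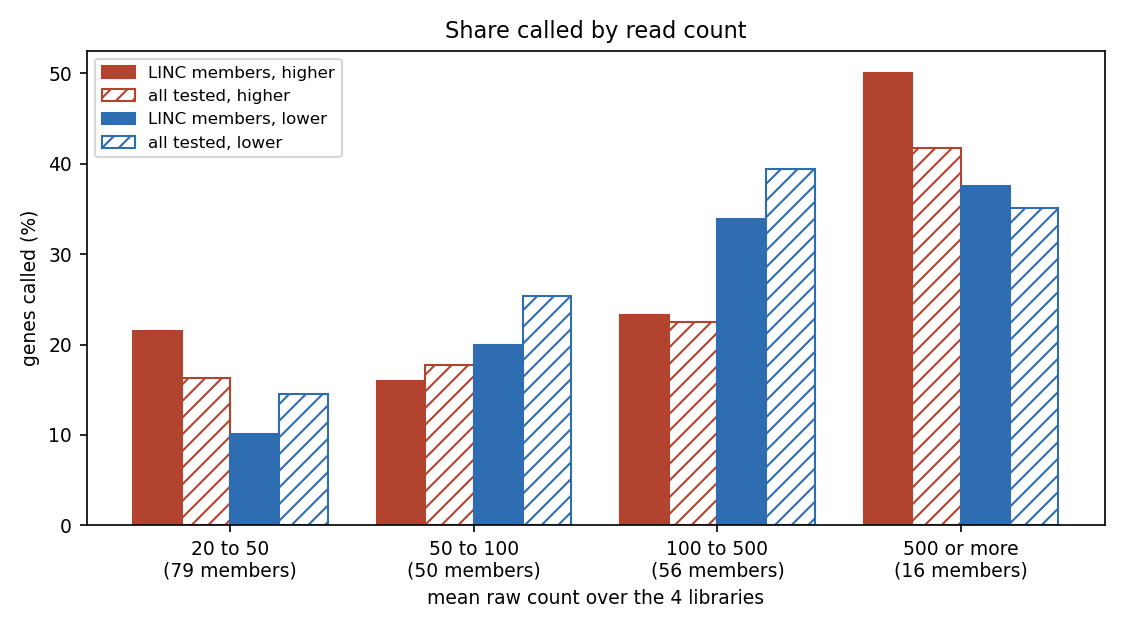
Percentage of genes called higher and lower in sorted P-bodies, by mean raw count over the 4 libraries; filled bars are the members and hatched bars all genes tested at that depth. Between 20 and 50 counts 17 of 79 members were higher and 8 lower, and at 500 counts or more 8 of 16 were higher and 6 lower.

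The minimum of 20 was met by the mean over all 4 libraries, so a member could pass through a single fraction. In sorted P-bodies alone 10 members reached a mean of 20, of which 9 were higher, and in cytosol alone 12 did, of which 3 were lower. Those members had to differ to some degree, and the other 179 gave 37 higher and 40 lower. Just inside the minimum stood LINC01600 with 17 and 30 reads in sorted P-bodies, against 25 and 8 in cytosol, LINC00449 with 15 and 14 against 22 and 30, and LINC01456 with 23 and 34 against 13 and 12. Just outside stood LINC02506 with 20 and 26 reads in sorted P-bodies, against 11 and 22 in cytosol, LINC00337 with 20 and 11 against 25 and 23, and LINC00574 with 24 and 17 against 16 and 22. Rows on the 2 sides of the minimum look alike.

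Of the 8 members on a list of LINC genes with a described role, 3 rose and LINC00665 fell, with a median log2 fold change of 0.10. LINC00662, reported in several tumour types, had 888 and 1041 reads in sorted P-bodies, against 584 and 623 in cytosol, a log2 fold change of 0.95 ± 0.14 (edgeR adjusted p = 0.00031). It was not called with the length trend removed (0.24, adjusted p = 0.17) or with the GC trend removed (0.34, adjusted p = 0.069). LINC00472 had 721 and 869 reads in sorted P-bodies, against 614 and 640 in cytosol (0.62 ± 0.15, edgeR adjusted p = 0.0051), and was not called with the length trend removed (0.09, adjusted p = 0.64). The third was LINC00632.

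The other 4 were not called. LINC00467, which encodes the mitochondrial micropeptide ASAP, had 228 and 227 reads in sorted P-bodies, against 301 and 331 in cytosol (log2 fold change -0.20 ± 0.13, edgeR adjusted p = 0.21). It passed the threshold under library-size scaling (-0.41), without sorted library 2 (-0.32), with the length trend removed (-0.35) and with the GC trend removed (-0.56). LINC00461, a brain-enriched RNA, had 87 and 59 reads in sorted P-bodies, against 75 and 81 in cytosol (0.16 ± 0.21, edgeR adjusted p = 0.54). LINC00511 had 92 and 80 reads in sorted P-bodies, against 103 and 99 in cytosol (0.03 ± 0.18, edgeR adjusted p = 0.89), and fell by 0.61 with the length trend removed (adjusted p = 0.016). LINC01116 had 22 and 41 reads in sorted P-bodies, against 42 and 58 in cytosol (-0.38 ± 0.37, edgeR adjusted p = 0.39), but passed the threshold without sorted library 2 (-1.03).

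LINC00472 and LINC00461 are also microRNA hosts, and their mature microRNAs are shown to say which family each locus carries; RefSeq (GRCh38.p14) gives them, with the seed, bases 2 to 8, in capitals. miR-30a-5p and miR-30c-5p, both from LINC00472, share a seed, and none of the mature microRNAs of that host lies in one of its GENCODE exons. Those of miR-9 lie in an exon of LINC00461.
miR-30a-5p: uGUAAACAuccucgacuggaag
miR-30c-5p: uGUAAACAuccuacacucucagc
miR-9-5p: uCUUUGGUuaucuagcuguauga

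MicroRNAs themselves were not measured here. Another member, LINC01138, spans miR-5087 and was lower, with 160 and 182 reads in sorted P-bodies, against 306 and 283 in cytosol (log2 fold change -0.51, edgeR adjusted p = 0.020), though 20.8% of its exonic bases overlap a gene on the opposite strand. Its call was lost under DESeq2 (adjusted p = 0.078), without cytosol library 1 (0.11) and with the GC trend removed (0.14).

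Genes first named LINC whose counts are listed under another name are no members, and 9 of 18 such genes on a list were found in the table. Of the 8 tested, NORAD and SMIM26 were higher and NBDY and BRD3OS lower, with a median log2 fold change of -0.01. NORAD, a cytoplasmic RNA that binds Pumilio proteins, had 33052 and 35418 reads in sorted P-bodies, against 9028 and 8302 in cytosol, a log2 fold change of 2.26 ± 0.14 (edgeR adjusted p = 3.6e-06). NBDY encodes NoBody, a microprotein that binds EDC4. It had 332 and 310 reads in sorted P-bodies, against 883 and 923 in cytosol, a log2 fold change of -1.22 ± 0.11 (edgeR adjusted p = 1.3e-05). A member, LINC02211, matches NORAD on the opposite strand over 54.4% of its longest transcript, so its rise of 1.21 ± 0.28 from 48 and 56 reads in sorted P-bodies against 27 in each cytosol library is uncertain. It was not called with the GC trend removed (0.44, adjusted p = 0.23).

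Other noncoding lists did not move alike. Of 9 nuclear noncoding RNAs tested 4 were higher and 2 lower, of 10 cytoplasmic ones 2 were higher and 6 lower, and of 23 snoRNA host genes 1 was higher and 14 lower. Among the nuclear RNAs, SNORD3A, RNU1-1 and KCNQ1OT1 were higher, at log2 fold changes of 3.38, 1.97 and 1.06, and RMRP at 0.41. RNU4-1 and TUG1 were lower, at -2.41 and -0.46, and MALAT1, NEAT1 and MIAT were not called, at 0.43, -0.14 and -0.33. The part that nuclear RNA in the sorted fraction has in the members' rises was not tested. Of the 6 HEK293 lineage markers all were tested and 2 were higher and 2 lower. Blood and liver markers, 6 in all, were not tested for want of reads, with APOA1 at 10 reads or fewer, PTPRC at 9 or fewer and HBB at 0. Of 3 fibroblast and 4 epithelial tumour line markers COL1A1 and CDH1 were lower, EPCAM was not called and the others were not tested. These were not absent: COL1A1 had 178 to 517 reads per library, CDH1 179 to 488 and EPCAM 29 to 53.

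The members that rose were poorer in G and C than those that fell. Median exonic GC content was 42.9% in the 46 higher members, 50.4% in the 42 lower members with a value and 48.7% in the 112 members not called. The same order held over all genes tested, at 41.7%, 53.4% and 49.4%. Across the 200 members with a GC value Spearman's rho of the log2 fold change with GC content was -0.45, and it was -0.50 across 18461 genes tested. Both are descriptions over genes that share 4 libraries, and genes are not independent replicates.

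Below 45% GC, 31 of 58 members were higher and 3 lower, where 54.5% of all genes were higher and 11.7% lower. Between 45% and 50%, 11 of 68 were higher and 17 lower (all genes 23.7% and 30.0%). At 50% or more, 4 of 74 were higher and 22 lower (all genes 8.54% and 44.6%). The 3 lower members below 45% were LINC00888, LINC00674 and LINC01560, and the 4 higher ones from 50% up were LINC02256, LINC01341, LINC00235 and LINC02447, all named after their values were seen. With the GC trend over all genes removed, 38 members were called higher (19.0%) and 34 lower (17.0%). Of these, 30 and 24 were among the main calls. Over all genes the shares in that fit were 24.7% higher and 25.6% lower.

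**Figure D5:**
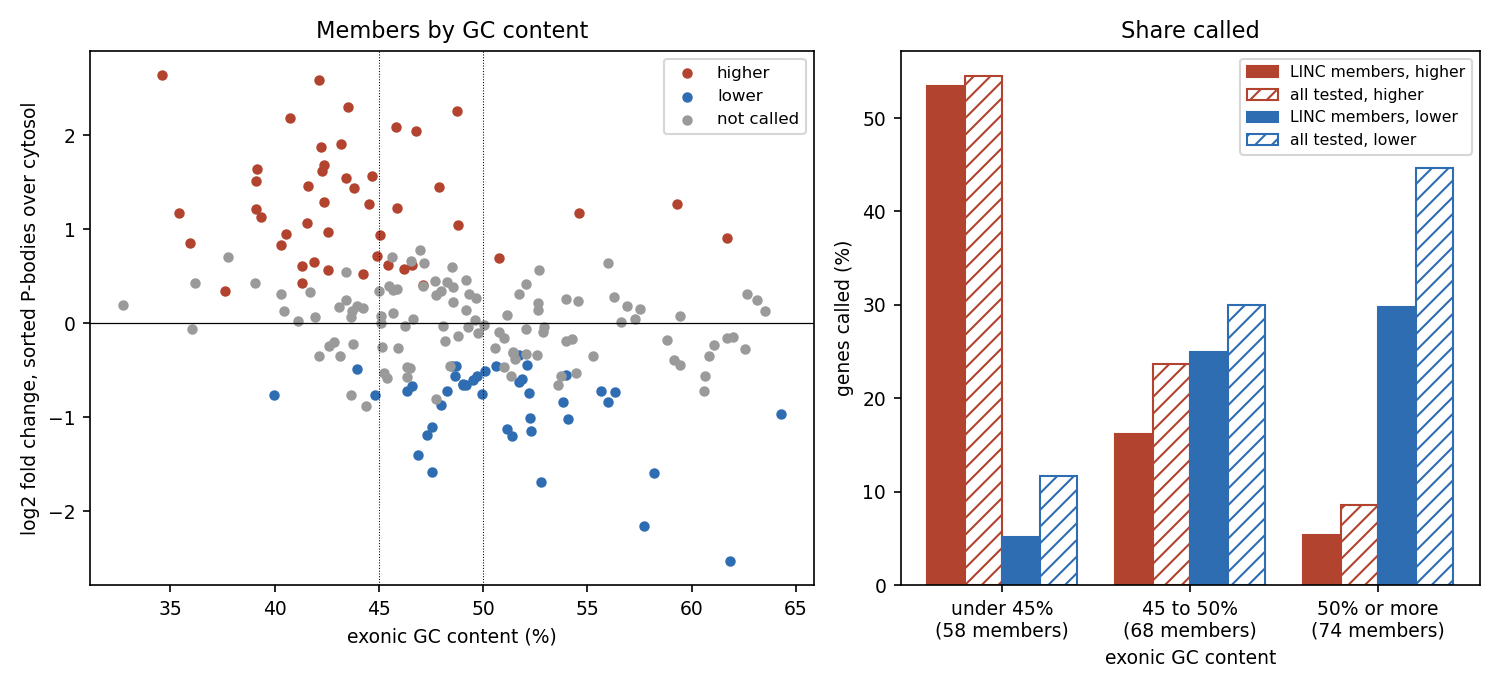
The left panel plots each member's log2 fold change, sorted P-bodies over cytosol, against exonic GC content (%), coloured by call, with dotted lines at 45% and 50%. The right panel gives the percentage called in each GC range, with filled bars for members and hatched bars for all genes tested. Higher members crowd below 45% and lower members above it. The members' shares change across the ranges in the same direction as those of all genes but lie under them. At 50% or more, 29.7% of members and 44.6% of all genes were called lower.

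Length showed little relation in the members. Spearman's rho of the log2 fold change with exonic length was 0.06 in the 201 members and 0.22 over all genes tested. Median exonic length was 4692 bases in higher members, 4132 in lower ones and 3280 in those not called, against 6103, 3958 and 3451 over all genes. Higher members had a median of 11 exon blocks (exons merged over transcripts), lower ones 7 and uncalled ones 5, against 12, 8 and 6 over all genes. The AU-rich word ATTTA stood at a median of 1.65 copies per kilobase of the longest transcript in higher members, 1.05 in lower ones and 0.972 in uncalled ones, against 1.86, 0.593 and 0.829 over all genes. This word is itself poor in G and C.

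The Pumilio word TGTANATA, where N is any base, was found on the RNA strand of the longest transcript in 36 of 200 members. Of these 13 were higher and 9 lower, and of the 164 members without it 33 were higher and 33 lower. Over all genes tested 49.7% of those with the word were higher and 19.4% lower, against 20.6% and 33.2% of those without. Members with the word had a median of 45.9% GC and members without it 48.6%, so word and composition moved together.

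LINC02604, the largest fall, carries a short repeated word. The most frequent word of 10 bases in its longest transcript, GGCCCAGCTC, occurs 20 times there, and the word and the comparison below were chosen after the values were seen. The 150-base stretches with the most copies among those inside a single exon are shown to give the word in its context. They hold 3 copies each in LINC02604 and LINC00174 and 1 in LINC01001. They run 5′ to 3′ on the RNA strand in hg38, with the word in capitals.
LINC02604, chr7:66903091-66903240, plus strand: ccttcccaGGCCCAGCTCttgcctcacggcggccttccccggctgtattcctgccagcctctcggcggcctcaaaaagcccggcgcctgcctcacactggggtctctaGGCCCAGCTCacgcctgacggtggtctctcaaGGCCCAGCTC
LINC00174, chr7:66377309-66377458, minus strand: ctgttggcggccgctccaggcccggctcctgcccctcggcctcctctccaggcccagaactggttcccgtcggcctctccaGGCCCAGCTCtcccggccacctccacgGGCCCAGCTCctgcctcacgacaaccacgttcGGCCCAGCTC
LINC01001, chr11:131085-131234, minus strand: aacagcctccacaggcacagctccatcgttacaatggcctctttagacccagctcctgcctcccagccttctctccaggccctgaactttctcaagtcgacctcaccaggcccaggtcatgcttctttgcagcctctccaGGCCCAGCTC

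At least 5 copies were found in 5 members, all lower in sorted P-bodies. LINC00174, with 13 copies, had 230 and 188 reads in sorted P-bodies, against 483 and 526 in cytosol (log2 fold change -1.01 ± 0.12, edgeR adjusted p = 7.2e-05). LINC00265, with 7 copies, had 214 and 146 reads in sorted P-bodies, against 366 and 347 in cytosol (-0.73 ± 0.15, edgeR adjusted p = 0.0021). LINC01002, with 5 copies, had 79 and 59 reads in sorted P-bodies, against 150 and 145 in cytosol (-0.83 ± 0.18, edgeR adjusted p = 0.0033). With the GC trend removed LINC00265 (-0.31, adjusted p = 0.11) and LINC01002 (-0.48, adjusted p = 0.055) were no longer called. LINC01001 had 9 copies, and LINC01347, the sixth member with the word, had 3 copies. All 15 tested genes with at least 5 copies were lower, including the 5 members. Among them are LINC02604, which gave the word and was picked for its fall, and LINC01001, which met the minimum through cytosol. Their direction followed to some degree from how they were chosen. Of the 350 tested genes with at least 1 copy 61 were higher and 155 lower. At 50% GC or more 44.6% of all genes tested were lower. The 15 genes with at least 5 copies share sequence and are rich in G and C, with a median of 58.2%. They are not independent of each other or of base composition, and reads could be shared among near-identical copies.

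Position in the genome was uneven, and the 2 chromosomes below were picked after their values were seen. On chromosome 4, 7 of 9 members were higher and none lower, where 48.1% of all genes tested there were higher and 13.9% lower. On chromosome 19, 6 of 8 members were lower and LINC00662 was higher, where 48.8% of all genes there were lower and 17.6% higher. Median GC content over all genes tested was 42.7% on chromosome 4 and 57.5% on chromosome 19. The members' own medians were 44.9% on chromosome 4 and 47.4% on chromosome 19, against 48.1% over all members. The part of GC content in these counts was not tested. Of the 20 members that start within 1000 bases of a coding gene on the other strand and point away from it, 4 were higher and 4 lower, and of the other 181 members 42 were higher and 39 lower. None of the 12 members of a pseudogene type was higher and 6 were lower, with a median log2 fold change of -0.48, against 39 higher and 25 lower of the 154 lincRNAs and a median of 0.13. Over all genes tested 28.8% were higher and 29.0% lower. Of the 28 members with a near-identical copy or over 20% exon overlap, whose counts are uncertain, 4 were higher and 11 lower.

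Of the 201 members, LINC00634 (SMIM45) was the only one listed in the sort's editing tables, which give edited reads and reads per gene and which are made up of protein-coding genes to over 99%. It had 0 edited reads for either editor. Its reads in those tables were 22 and 14 in sorted P-bodies, against 51 and 48 in cytosol. A count of 0 allows an edited share of up to 8.33% over the 36 reads of sorted P-bodies and up to 3.03% over the 99 reads of cytosol, taking 3 counts as the limit, which covers counting error only. In the counts it was lower, with 32 and 17 reads in sorted P-bodies, against 56 and 59 in cytosol (log2 fold change -0.97 ± 0.30, edgeR adjusted p = 0.020). That call was lost under DESeq2 (adjusted p = 0.073), without cytosol library 1 (0.058), without cytosol library 2 (0.075) and with the length (0.065) or GC trend (0.15) removed. No member was listed in the siEDC4 and siNC tables, so the knockdown gave no value for them here.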

How the data were processed

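Members were the rows with a LINC symbol and a mean of at least 20 raw counts over the 4 sort libraries. The authors deposited whole-number read counts per gene with no normalization, per the file headers. The authors also deposited, per gene and editor, edited reads and reads (entered as estimated counts) and an editing score, which is a fraction. Alignment with STAR 2.7.9a to hg38 and counting with featureCounts 2.0.1, after cutadapt 1.18 and FastQC 0.11.9, are named by the submitters' processing notes. Annotation, strand and the treatment of multiply matching reads are not stated there, so near-identical or overlapping genes are uncertain. Counts of all genes were tested with edgeR 4.0.16 (R 4.3.3; TMM, filterByExpr, quasi-likelihood test, Benjamini-Hochberg, threshold 0.05), checked on simulated data; the SE is the log2 fold change over the square root of F. DESeq2 1.42.0, library-size scaling, no filter, a replicate block, removal of a length or GC trend (lowess, span 0.3), other count minimums and leaving out each library were alternatives. The labels' batch numbers pair the libraries; deviations from the group means of same-numbered libraries correlated at 0.07 over 16117 genes. Gene types, GC content and transcripts came from GENCODE v29, which holds 200 of the 201 members; near-identical copies (BLAST+ 2.17.0) match at least 50% of the longest transcript at 97% identity or more. Named genes were the 12 largest rises and falls called with the same sign in both batches, the 6 highest by RPKM, members of lists, members listed in editing tables and rows next to the minimum. Members and lists were chosen with earlier results of these data known. Planned tests of editing and of knockdown reads gave no value, because the tables list LINC00634 alone, with 0 edited reads, or no member. Of the 6 transcript ends chosen for display, 3 in each direction, 2 are not reported here.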

Additional observations from a re-analysis of the deposited data

How the results depend on the processing

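The count of higher members, 46, ran from 35 to 63 when each library was left out and that of lower members, 43, from 20 (without cytosol library 1) to 56. DESeq2 called 24 lower members. Counts over all genes moved too when a library was left out and under DESeq2. Such shifts were thus not seen in the members alone. Among the 122 LINC rows with a mean of at least 50 counts 29 were higher (23.8%) and 35 lower (28.7%). The shares of the 201 members were 22.9% and 21.4%, so with this minimum lower rows outnumbered higher ones. Of the 46 and 43 called members, 30 and 18 kept their call without any single library, and 19 and 16 in all 10 settings refitted over all genes. Kept calls were counted for the members alone, so their loss cannot be read as particular to LINC genes. The fit with the batch number as a replicate block called 51 higher (25.4%) and 46 lower (22.9%), including all of the main calls. It called 29.4% of all genes higher and 30.0% lower. Among the named members that fit changed the call of LINC01976 and of no other. The sign turned for LINC00632 with the length trend (-0.32) or the GC trend (-0.56) removed, and for LINC00511 with the length trend removed (-0.61); the cause was not tested. Without near-identical or overlapping members, 42 were higher and 32 lower of 173; the GC, overlap and both-fraction alternatives were chosen after seeing the data. By depth, 25 of the 79 members under 50 counts were called, and 14 of the 16 from 500 counts up. The planned editing and knockdown alternatives were not run.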
